A study of Homo sapiens with 4 samples.

Results

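Solute carriers are membrane proteins that move sugars, amino acids, vitamins, ions and metabolites across the plasma membrane and the membranes of mitochondria and lysosomes without hydrolysing ATP themselves. The solute carrier (SLC) genes described here are those whose symbol in the probe annotation reads SLC, a family number, the letter A and a member number. The rule found 17 of 14006 named genes, each with 1 probe, and they belong to 11 families. RefSeq (GRCh38.p14) holds 347 symbols of this form, in 56 families, and the other 330 had no named probe and are not analysed here. Among these are all members of the classical glucose (family 2), cationic and large neutral amino acid (family 7), monocarboxylate (family 16) and zinc (families 30 and 39) transporter families. What follows therefore concerns a small and particular set of solute carriers, not transport in these cells at large.

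RNA of 4 cultures was hybridised to Affymetrix whole-transcript arrays, with 1 array for each culture. PC3 is an androgen-independent human prostate cancer line from a bone metastasis, and PC3-L and PC3-H were separated from PC3 by their binding of IIH6C4, an antibody to the laminin-binding O-glycan, as low and high for that glycan. The labels give LNCaP-AI as an androgen-independent, low-glycan derivative of LNCaP, obtained by culture with charcoal-stripped (steroid-poor) serum. LNCaP itself, a prostate cancer line from a lymph node metastasis, is labelled androgen-dependent and high for this glycan. PC3-L and LNCaP-AI are labelled high, and PC3-H and LNCaP low, for motility and invasion. All cultures were grown in RPMI1640 medium; whether the LNCaP-AI culture is 1 clone is not stated. The free-text descriptions contradict the titles: they give the glycan as high for PC3-L and low for PC3-H, and call LNCaP androgen-independent, and for LNCaP-AI they speak of growth in perineural cell conditioned medium. Titles and source names were followed, and with the descriptions every direction between PC3-L and PC3-H would turn round. No group had a replicate, so the differences between arrays carry no replicate error and no p-value.

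Line markers showed the array labelled LNCaP-AI without the LNCaP programme. The prostate-specific antigen gene KLK3 stood at 61.2 there, against 1781 on LNCaP, and at 63.4 on PC3-L and 58.96 on PC3-H. All 4 measured LNCaP markers were at least 2-fold lower on it than on LNCaP, and 6 of 7 PC3 markers were at least 2-fold higher. Hence it is referred to by its label only, and each difference from LNCaP below rests on it. Across all 37934 probes on the log2 scale it correlated with PC3-L at r = 0.961, with PC3-H at r = 0.926 and with LNCaP at r = 0.885, which are correlations across probes that share arrays and labelling. Defining markers of other cell types were dim or flat: the fibroblast marker THY1 lay between 47.1 and 51.7 and the endothelial marker CLDN5 between 58.2 and 73.4 over the 4 arrays, and of the 4 leukocyte markers measured the lysosomal gene CD68 was the 1 past 2-fold. Of 3 perineurial and Schwann cell markers measured ERBB3, which epithelial cells also express, was the 1 past 2-fold, and the erythroid marker AHSP did not pass the filter. Fewer cells of a kind and less RNA per cell cannot be told apart in such cultures.

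Most of the 17 genes are recent additions to the SLC nomenclature. Of them, 10 are listed in RefSeq with an older MFSD name, for the major facilitator superfamily of transporters, and 3 with an older PQLC name, for PQ-loop proteins, which include lysosomal amino acid exporters. SLC38A12 was TMEM104, SLC49A4 was DIRC2, and SLC25A15 and SLC25A2 are the mitochondrial ornithine carriers ORNT1 and ORNT2. All 17 reached the 40th percentile of at least 1 array in both pairs, the filter used to set dim genes aside. SLC60A1, an orphan transporter with 39.3, 40.7, 35.3 and 43.5 on PC3-L, PC3-H, the array labelled LNCaP-AI and LNCaP, stayed close to the array medians of 39.8 to 41.2, so little can be read from it.

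Promoters are shown for the 2 SLC genes that were at least 2-fold higher on PC3-L than on PC3-H, SLC71A1 and SLC60A2, whose values follow below. They run from 250 bases before to 50 bases after the RefSeq start in GRCh38.p14, 5′ to 3′, at chr1:100037845-100038144 on the + strand and chr6:111259089-111259388 on the + strand. Capitals mark matches, on either strand, to the motifs searched: TGATGNAA (amino acid response element), TGCACNC and TGCGCNC (metal response element core), ACGTG (hypoxia response element core), and the palindromic androgen response element.
SLC71A1: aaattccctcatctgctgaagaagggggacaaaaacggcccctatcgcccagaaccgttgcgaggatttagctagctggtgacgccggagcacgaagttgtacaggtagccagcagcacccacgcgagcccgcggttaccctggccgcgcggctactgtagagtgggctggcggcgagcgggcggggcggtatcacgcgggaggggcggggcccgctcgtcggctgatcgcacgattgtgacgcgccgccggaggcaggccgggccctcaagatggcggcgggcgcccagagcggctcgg
SLC60A2: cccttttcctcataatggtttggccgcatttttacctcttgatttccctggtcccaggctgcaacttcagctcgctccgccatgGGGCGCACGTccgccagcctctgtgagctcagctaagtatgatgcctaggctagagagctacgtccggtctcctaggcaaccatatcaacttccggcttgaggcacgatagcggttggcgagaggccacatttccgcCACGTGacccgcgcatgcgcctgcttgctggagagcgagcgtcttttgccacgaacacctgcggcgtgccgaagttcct
The SLC71A1 window held 0 matches to the motifs searched and 68.7% G or C. The SLC60A2 window, with 58.7% G or C, held 1 match to TGCGCNC and 3 to ACGTG. There 1 of the ACGTG matches overlaps the TGCGCNC match, and the other 2 overlap each other on opposite strands in the palindrome CACGTG. Of the 17 genes, 14 had a promoter in the RefSeq table, all but SLC25A2, SLC33A2 and SLC66A2. These 14 genes have 15 promoters. A gene was counted if any promoter of it matched, whereas the shares of all are per promoter, so the units differ. TGCGCNC was found for 6 of the 14, against 19.97% of all 35116 promoters of the table, and ACGTG for 6 of the 14, against 21.4%. TGCACNC was found for 1, SLC75A1, against 12.1% of all promoters, and TGATGNAA for 0, against 3.62%. The androgen response element was found for 0 of the genes and in 1 of all 35116 promoters. A match is a run of letters, and binding was not measured.

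PC3-L was set against PC3-H to see what goes with low laminin-binding glycan within PC3. Of the 17 SLC genes, SLC60A2 and SLC71A1 were at least 2-fold higher on PC3-L, and SLC33A2 was at least 2-fold lower. The share called was 11.8% higher and 5.88% lower, against 8.58% and 3.76% of all 11135 genes past the filter, so it lay near the background. At 1.5-fold, a size chosen after the data were seen, 3 were higher (18.7% of all genes) and 2 lower (10.7%). The median log2 difference, computed on intensity plus a pseudocount of 1, was −0.05 over the 17 genes and −0.02 over all genes.

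SLC60A2, known as the sodium-dependent glucose transporter NaGLT1 from work in rat kidney, had an intensity of 170 on PC3-L and 74.9 on PC3-H. It was 122 on the array labelled LNCaP-AI and 140 on LNCaP. PC3-H was thus the low array of the 4, and the difference of PC3-L from it was 2.25-fold. SLC71A1, a major facilitator protein first described as hippocampus abundant transcript 1 and needed for sperm head formation in mice, had 382 on PC3-L and 183 on PC3-H. Its value was 230 on the array labelled LNCaP-AI and 319 on LNCaP. The PC3-L value was 2.08-fold the PC3-H value, close enough to 2-fold that the call was lost with a pseudocount of 16, with quantile normalization and with a trend in gene length and gene density removed. These gave log2 differences between 0.93 and 1.00 (0.999126 with the pseudocount of 16), against 1.06 as measured.

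SLC71A2, the paralogue of SLC71A1, had the same order of arrays within PC3 and smaller differences. It was 244 on PC3-L and 175 on PC3-H, and 198 on the array labelled LNCaP-AI and 247 on LNCaP. Both family 71 genes were therefore higher on PC3-L (2.08-fold and 1.39-fold) and, in the LNCaP pair, lower on LNCaP-AI (1.38-fold and 1.25-fold), all but 1 of these differences being within 2-fold. The second member of family 60, SLC60A1, did not follow SLC60A2, with a log2 difference of −0.05 between PC3-L and PC3-H.

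SLC33A2, the paralogue of the acetyl-CoA transporter SLC33A1 and formerly MFSD3, was the 1 SLC gene past 2-fold in both pairs. Its intensity was 54.7 on PC3-L and 144 on PC3-H, and 69.9 on the array labelled LNCaP-AI and 161 on LNCaP. Both low-glycan arrays lay below both high-glycan arrays, and the lower of the high-glycan values, on PC3-H, was still 2.05-fold the value on the array labelled LNCaP-AI. The difference was 2.61-fold between PC3-L and PC3-H and 2.29-fold between the array labelled LNCaP-AI and LNCaP. Of all 10762 genes past the filter in both pairs, 1.06% were at least 2-fold lower in both and 2.20% at least 2-fold higher in both; among the 17 SLC genes these were 1 and 0. With the trend in gene length and gene density removed, the log2 difference between PC3-L and PC3-H was −0.98, just within 2-fold, against −1.38 as measured.

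**Figure D1:**
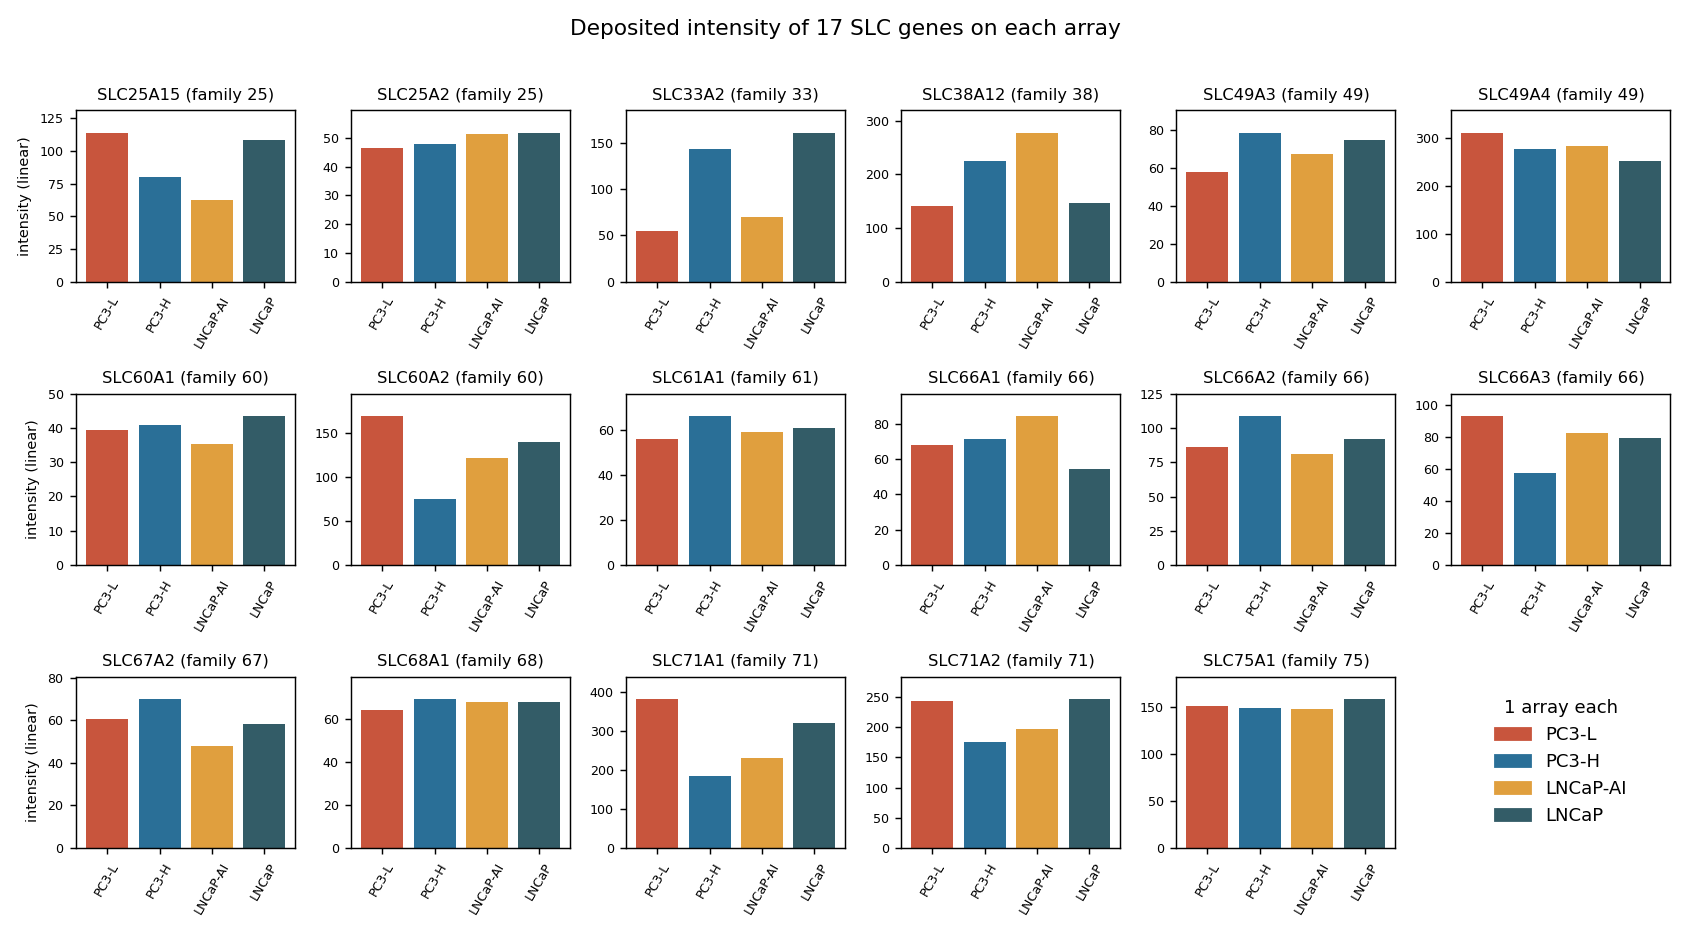
Deposited intensity on a linear scale (y axis, from 0, with its own range in each panel) of each of the 17 SLC genes on the PC3-L, PC3-H, LNCaP-AI and LNCaP arrays, 1 bar per array and no error bars because no group had a replicate. SLC33A2 is low on both low-glycan arrays (54.7 and 69.9) and high on both high-glycan arrays (144 and 161), while SLC75A1 stays between 148 and 159.

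The mitochondrial ornithine carriers, the PQ-loop genes and SLC38A12 differed by less than 2-fold in the PC3 pair. SLC25A15, which exchanges ornithine and citrulline across the inner mitochondrial membrane for the urea cycle and is mutated in HHH syndrome, had 114 on PC3-L and 80.2 on PC3-H, a 1.42-fold difference. SLC25A2, its intronless relative, had 46.6 on PC3-L and 47.9 on PC3-H. SLC66A1, which exports cationic amino acids from lysosomes, was flat at 68.3 on PC3-L and 71.9 on PC3-H. The other PQ-loop genes went opposite ways, with SLC66A3 at 93.1 on PC3-L and 57.6 on PC3-H (1.61-fold) and SLC66A2 at 86.5 on PC3-L and 109 on PC3-H (1.26-fold). SLC38A12, placed by its number among the amino acid transporters of family 38, had 141 on PC3-L and 225 on PC3-H, which is 1.59-fold lower on PC3-L.

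The remaining carriers of the PC3 pair stayed within 1.5-fold. SLC49A3 had 57.6 on PC3-L and 78.3 on PC3-H, and its family member SLC49A4, a lysosomal protein named for a gene disrupted in a family with renal cancer, had 310 on PC3-L and 277 on PC3-H. SLC75A1, related to a bacterial tetracycline exporter, was 151 on PC3-L and 149 on PC3-H. SLC61A1, named for homology with an algal molybdate transporter, SLC67A2 and SLC68A1 had log2 differences of −0.24, −0.20 and −0.11.

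The second pair sets the array labelled LNCaP-AI against LNCaP, for androgen independence and low glycan together. Here 1 of the 17 SLC genes was at least 2-fold lower, SLC33A2, and 0 were at least 2-fold higher, against 5.13% lower and 5.45% higher of all 11136 genes past the filter. At 1.5-fold 2 were higher (11.4% of all genes) and 2 lower (12.3%). The differences were small on the whole: their median size, regardless of sign, was 0.20 on the log2 scale for the SLC genes and 0.27 for all genes. No test could be made of this pair, with 1 array on each side.

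More SLC genes lay below 0 than above it in this pair, although nearly all by little. The log2 difference was below 0 for 13 of the 17 genes (76.5%) and for 49.4% of all genes, with medians of −0.14 and 0.00. In the PC3 pair 10 of the 17 (58.8%) were below 0, against 51.6% of all genes. All 10 genes with an older MFSD name were below 0 on the array labelled LNCaP-AI, with a median of −0.24, but 1 of them, SLC68A1, had 67.7 on that array and 67.8 on LNCaP. Quantile normalization, and removal of the trend in gene length and density, each left 9 of the 10 below 0. Of the 6 measured genes that still carry an MFSD symbol, 2 were below 0 (median 0.03). In the PC3 pair 6 of the 10 genes with an older MFSD name were below 0, with a median of −0.08. The MFSD grouping was made after the values were seen and has no test.

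The SLC genes with the largest differences in this pair, after SLC33A2, were SLC38A12, SLC25A15 and SLC66A1. SLC38A12 had 278 on the array labelled LNCaP-AI and 147 on LNCaP, a 1.88-fold difference and the opposite direction to the PC3 pair. Its values split into PC3-L and LNCaP, at 141 and 147, and PC3-H and the array labelled LNCaP-AI, at 225 and 278. SLC25A15 had 62.8 on the array labelled LNCaP-AI and 108 on LNCaP, 1.72-fold lower, and the same split of arrays in the other direction. SLC66A1 had 84.8 on the array labelled LNCaP-AI and 54.6 on LNCaP, 1.54-fold higher.

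**Figure D2:**
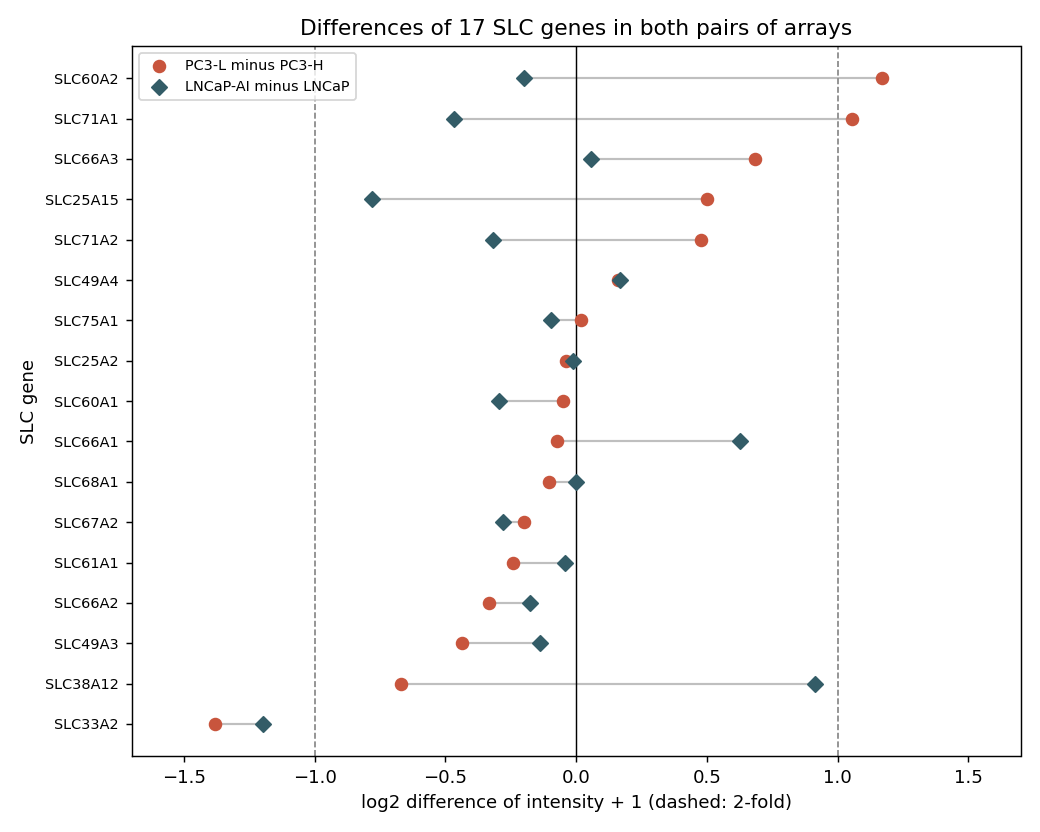
Log2 difference of intensity plus 1 (x axis) for each of the 17 SLC genes (y axis), with circles for PC3-L minus PC3-H, diamonds for LNCaP-AI minus LNCaP, a grey line joining both, and dashed lines at 2-fold. SLC33A2 lies past the lower 2-fold line in both pairs (−1.38 and −1.20), whereas SLC38A12 (−0.67 and 0.91) and SLC25A15 (0.50 and −0.78) lie on opposite sides of 0.

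In the other SLC genes the LNCaP pair showed differences under 1.4-fold. SLC60A2 had 122 on the array labelled LNCaP-AI and 140 on LNCaP, so the 2.25-fold difference of the PC3 pair had no counterpart of its size. SLC67A2, an orphan major facilitator, had 47.9987 on the array labelled LNCaP-AI and 58.5 on LNCaP. SLC66A3 had 82.5 on the array labelled LNCaP-AI and 79.3 on LNCaP, and SLC66A2 had 81.4 on the array labelled LNCaP-AI and 92.2 on LNCaP. SLC49A4 was 1.12-fold higher on the low-glycan array in both pairs, at 282 on the array labelled LNCaP-AI and 252 on LNCaP. Its log2 difference in the PC3 pair, 0.16 as measured, was 0.01 with quantile normalization. It was −0.06 with the trend in gene length and density removed. SLC49A3 had 67.3 on the array labelled LNCaP-AI and 74.3 on LNCaP, which is 1.10-fold lower. SLC25A2 had 51.4 on the array labelled LNCaP-AI and 51.9 on LNCaP, and SLC61A1 had 59.1 on the array labelled LNCaP-AI and 60.9 on LNCaP.

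**Figure D3:**
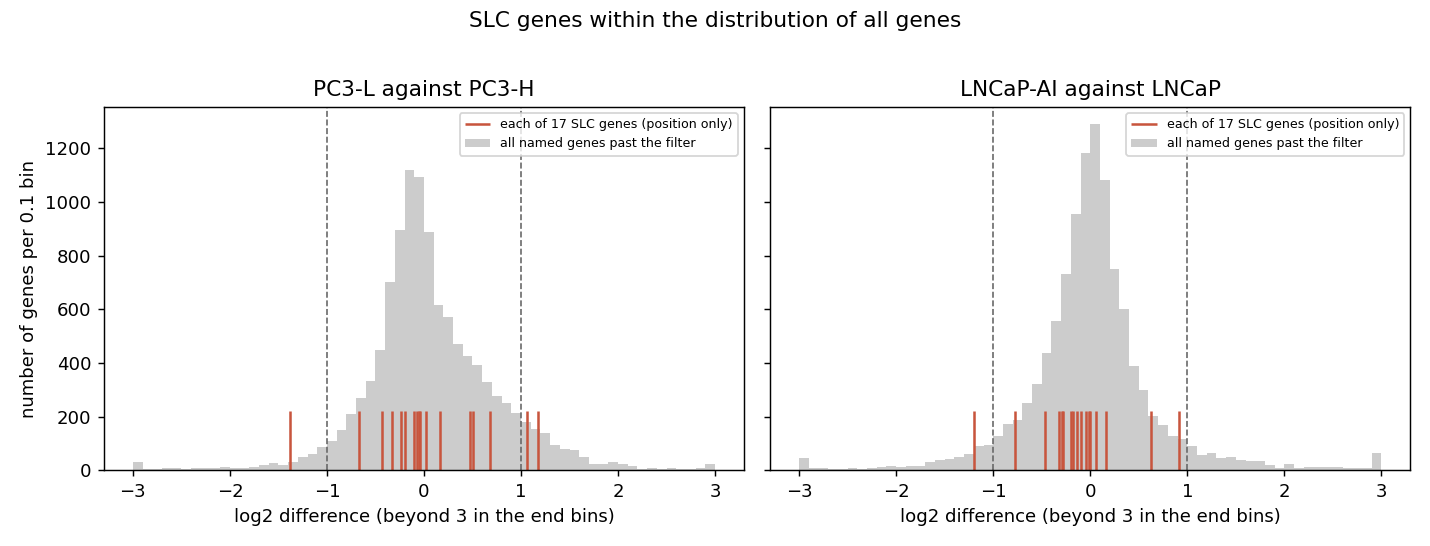
Number of named genes past the filter per 0.1 of log2 difference (y axis, grey) in the PC3 pair (left) and the LNCaP pair (right), with differences beyond 3 placed in the end bins, and the positions of the 17 SLC genes as vertical lines whose height has no meaning. The SLC genes run from −1.38 to 1.17 in the PC3 pair and from −1.20 to 0.91 in the LNCaP pair, with SLC33A2 in the lower tail of both (percentiles 1.72 and 3.50).

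The low-glycan arrays PC3-L and LNCaP-AI together against the high-glycan arrays PC3-H and LNCaP are the 1 comparison with a residual degree of freedom. It was fitted with limma over 11509 genes with the line as a covariate. The standard errors below are moderated: the disagreement between the lines gives 1 degree of freedom, and the prior estimated over all genes gives 3.32. After Benjamini-Hochberg adjustment at 0.05 limma called 0 of the 17 SLC genes and 0 (0%) of all genes; at an unadjusted p under 0.05 it counted 1 SLC gene and 1014 genes (8.81%). The 1 gene was SLC33A2, with a log2 difference of −1.29 ± 0.25 (SE, n = 2 arrays per label), an unadjusted p of 0.0053 and an adjusted p of 0.28 in limma. SLC33A2 was lower on the low-glycan array of each pair, 1 of these being the array labelled LNCaP-AI, which lacks the LNCaP programme. The gene with the next smallest p was SLC66A3, at 0.37 ± 0.29 (SE) with an adjusted p of 0.88 in limma. SLC38A12 had 0.12 ± 0.45 (SE) and SLC71A1 0.29 ± 0.44 (SE), the largest standard errors of the 17, and the genes with the widest gaps between the pairs. Since the array labelled LNCaP-AI goes against its line label, the line covariate may not describe it, and without that array no residual degree of freedom is left.

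Across the 4 arrays the SLC genes varied about as much as other genes. The highest value was 1.41-fold the lowest at the median SLC gene and 1.48-fold at the median of all 11509 genes. SLC33A2 (2.92-fold), SLC60A2 (2.25-fold) and SLC71A1 (2.08-fold) spanned 2-fold or more, which is 17.6% of the SLC genes against 23.2% of all. At the other end 4 genes stayed within 1.2-fold (23.5%, against 17.7% of all): SLC75A1, SLC68A1, SLC25A2 and SLC61A1.

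Measures of which array lay closest to the array labelled LNCaP-AI at the SLC genes differed. Over the 17 genes on the log2 scale it correlated with PC3-L at r = 0.900, with PC3-H at r = 0.889 and with LNCaP at r = 0.861, values that share arrays and probes. Over the same genes LNCaP correlated with PC3-L at r = 0.900 also and with PC3-H at r = 0.886, and PC3-L with PC3-H at r = 0.773. Gene by gene, the array nearest on the log2 scale to the array labelled LNCaP-AI was PC3-H for 7 genes and LNCaP for 7. It was PC3-L for 3, SLC33A2, SLC60A1 and SLC66A2. Among all 11509 genes these shares were 33.2%, 28.1% and 38.7%. For 5 of the 17 the nearest distance was under 0.05 and the order of arrays carries little, namely SLC25A2, SLC49A4, SLC61A1, SLC68A1 and SLC75A1. In SLC38A12 the array labelled LNCaP-AI was 1.23-fold from PC3-H and 1.96-fold from PC3-L, and in SLC25A15 1.27-fold from PC3-H and 1.80-fold from PC3-L. No SLC gene was 2-fold apart between the array labelled LNCaP-AI and PC3-L, against 0.831% higher and 1.95% lower of all 10956 genes, and 0 between LNCaP and PC3-H, against 5.46% higher and 4.49% lower of all 11159. Against PC3-H the array labelled LNCaP-AI was at least 2-fold lower at 1 SLC gene, SLC33A2 (3.35% of all genes), and at least 2-fold higher at 0 (3.98%).

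Genes that work with transporters were read from lists made with earlier results of these data known. Of 10 partners and regulators of transporters 8 were measured and 6 passed the filter. At least 2-fold lower were 1 on PC3-L, TXNIP, and 3 on the array labelled LNCaP-AI, TXNIP, MPC2 and EMB. In either pair 0 were at least 2-fold higher. Of all genes 3.76% were lower and 8.58% higher on PC3-L, and 5.13% were lower and 5.45% higher in the LNCaP pair. TXNIP, an arrestin that removes glucose transporters from the membrane, had 28.99 on PC3-L and 143 on PC3-H, and 62.1 on the array labelled LNCaP-AI and 201 on LNCaP. MPC2, a subunit of the mitochondrial pyruvate carrier, had 95.9 on the array labelled LNCaP-AI and 702 on LNCaP, while its partner MPC1 had 137 on the array labelled LNCaP-AI and 126 on LNCaP. EMB, a chaperone of monocarboxylate transporters, had 28.7 on the array labelled LNCaP-AI and 109 on LNCaP, and the other such chaperone, BSG, had 849 on the array labelled LNCaP-AI and 860 on LNCaP. On PC3-L and PC3-H, MPC2 had 97.7 and 102 and EMB had 45.3 and 41.7, so both genes stood high on LNCaP alone. The array labelled LNCaP-AI, which lacks the LNCaP programme, lay near or below the PC3 arrays at both.

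Amino acid synthesis and stress genes had 7 of 11 above 0 in the PC3 pair and 11 of 11 below 0 in the LNCaP pair, and 4 (GLUL, PHGDH, PSPH and SHMT2) were below 0 in both. At least 2-fold apart were 5 higher on PC3-L and 0 lower, against 8.58% and 3.76% of all genes, and in the LNCaP pair 7 lower and 0 higher, against 5.13% and 5.45% of all genes. The asparagine synthetase gene ASNS had 431 on PC3-L and 95.4 on PC3-H, and 82.9 on the array labelled LNCaP-AI and 244 on LNCaP. SLC25A15, SLC71A1, SLC60A2, SLC71A2 and SLC75A1 had the same order as ASNS, and SLC38A12 and SLC66A1 the reverse, within PC3 and within LNCaP. For SLC75A1 and SLC66A1 the log2 differences in the PC3 pair were close to 0 (0.02 and −0.07). Their signs turned under other processing, so their order within PC3 carries little. Of the 17 SLC genes 41.2% had opposite signs in the pairs, against 48.5% of all genes. The shared order was noticed after the values were seen and was not tested. Glycolysis genes had 9 past the filter, with 0 past 2-fold on PC3-L and 2 lower on the array labelled LNCaP-AI, HK2 and GPI, and 0 higher. Of P-type pumps 3 passed, with 0 past 2-fold on PC3-L and 1, ATP13A2, higher on the array labelled LNCaP-AI at 308 against 140 on LNCaP. Beside both lists, 8.58% of all genes were higher and 3.76% lower on PC3-L. In the LNCaP pair 5.45% of all genes were higher and 5.13% lower.

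Metallothioneins, which bind zinc and copper, had 4 genes past the filter in the PC3 pair, of which MT1F and MT1X were at least 2-fold lower on PC3-L and 0 higher, against 3.76% and 8.58% of all genes. In the LNCaP pair 5 passed, with MT2A higher and MT1F and MT1G lower on the array labelled LNCaP-AI, against 5.45% and 5.13% of all genes. MT1G passed there only through LNCaP, with 133 against 22.8 on the array labelled LNCaP-AI. Likewise MT1F passed only through PC3-H (148, against 27.2 on PC3-L) and LNCaP (96.3, against 26.6 on the array labelled LNCaP-AI). Genes that pass only through their high array can be called only lower on the other. Metallothionein genes are near-identical copies, so probes may not separate them. The 5 protein-coding SLC genes outside the naming rule held 0 past 2-fold on PC3-L, against 8.58% higher and 3.76% lower of all genes. On the array labelled LNCaP-AI 1 was lower and 0 higher, against 5.13% and 5.45% of all genes. It was SLC35D4, of the nucleotide sugar transporter family, at 67.5 against 138 on LNCaP. The list of SLCO organic anion transporters matched 1 gene, an antisense RNA, and so measured no such transporter, and the ABC transporter list matched 0.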

How the data were processed

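Per the labels' protocols, ISOGEN II was used for RNA extraction, and the GeneChip WT Terminal Labeling Kit for biotinylation. The deposited intensity values are on a linear scale, from 17.6 to 11188, and not centred per gene, as the values show. Probe summary, background correction and normalization by the authors are not given in the sources used here; the series' design text names GeneSpring GX 12.6. Of 37934 probes 14952 had 1 gene symbol, 0 several and 22982 none in the platform annotation; all 14952 matched RefSeq (GRCh38.p14) by Entrez identifier. They cover 14006 genes, each represented by its probe with the highest mean.

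Differences were taken as log2 of intensity plus 1, among genes at or above the 40th percentile of all probes on either array compared, and counted at 2-fold. Python 3.11.15 and limma 3.58.1 in R 4.3.3 were used. The limma fit was two-sided with Benjamini-Hochberg adjustment over all genes, and its code was tried on simulated data. Noise in the simulation was small and of the same size for every gene, and the changes were large. It therefore cannot show how the fit performs on arrays like these. Array number limits the precision, and the intensity floor understates differences of dim genes. The naming rule covered the 10 largest differences per direction and pair, every gene past 2-fold in both pairs, and fixed genes of interest, none of which had a named probe; as few SLC genes were measured, it took in all 17. MFSD and protein-coding SLC genes outside the rule, and the 1.5-fold count, were added after seeing the data. The SLC genes and lists were chosen with earlier results of these data known. Alternatives were another pseudocount, filter, probe summary, normalization and a trend removal.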

Additional observations from a re-analysis of the deposited data

Results flagged for a closer look

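Differences with opposite signs in the PC3 and LNCaP pairs, 1 array per group, picked out 7 of the 17 SLC genes (41.2%, against 48.5% of all 10762 genes past the filter in both pairs). The contrast between the pairs was not tested. With the PC3 direction turned, as the free-text descriptions have it, the other 10 (58.8%), SLC33A2 among them, would be the ones with opposite signs, against 51.3% of all genes. The LNCaP-AI minus LNCaP value less the PC3-L minus PC3-H value, on the log2 scale, was −1.53 for SLC71A1, −1.37 for SLC60A2, −1.28 for SLC25A15 and −0.80 for SLC71A2. It was 0.70 for SLC66A1 and 1.58 for SLC38A12. SLC75A1, with −0.11, lay close to 0 in both pairs (0.02 in PC3 and −0.10 in LNCaP), and SLC66A1 close to 0 in PC3 (−0.07). In the PC3 pair the sign of SLC75A1 turned with quantile normalization, with a range of −0.14 to 0.09 over the alternatives. The sign of SLC66A1 turned there with the trend in gene length and density removed, with a range of −0.09 to 0.01.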

How the results depend on the processing

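The count of SLC genes at least 2-fold higher on PC3-L, 2 as measured, was 1 with a pseudocount of 16, with quantile normalization and with the trend in gene length and density removed, SLC60A2 being left each time. The count lower on PC3-L, 1 as measured, was 0 with that trend removed, where SLC33A2 had −0.98; the cause was not tested. At 1.5-fold, chosen after seeing the data, 3 SLC genes were higher on PC3-L (18.7% of all genes) and 2 lower (10.7%), and 2 were higher on the array labelled LNCaP-AI (11.4%) and 2 lower (12.3%). In the LNCaP pair SLC33A2 stayed past 2-fold lower in all 7 alternatives tried (−1.25 to −1.05), and no other SLC gene passed 2-fold there. The median of the PC3 pair lay between −0.09 and 0.00, its sign turning with median centring. The limma count of SLC genes was 0 in each of the 7 alternatives tried, with a lowest adjusted p of 0.19 to 0.44; over all genes it was 1 with the 60th percentile filter and 0 in the others. The groups share no replicate numbers, as each had 1 array, so no replicate block was fitted; the line is the covariate that pairs the arrays in the limma comparison, and without it the count was also 0.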
